A study of Mus musculus with 6 samples.

Results

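Expression of 9 genes of GDNF to RET signalling was followed in fetal mouse testes at embryonic day 14.5: the ligand genes Gdnf and Nrtn, the receptor genes Ret, Gfra1, Gfra2 and Gfra3, and the target genes Lhx1, Bcl6b and Etv5. They were taken by gene symbol, as every probe that the array's annotation gives to 1 of them. That gave 15 of 45281 probes and 9 of 19057 named genes. The 3 overexpressors were Amh-cre;RosaNICD/+, in which a Cre driven from the AMH promoter in Sertoli cells switches on the intracellular domain of NOTCH1, a constantly active form of that receptor, from the Rosa26 locus. The 3 controls were RosaNICD/+ littermates, which carried the same silent allele and no Amh-cre, so that an effect of carrying Cre and an effect of active NOTCH1 cannot be told apart. All were on a mixed B6/CD1 background. Each sample was the testis pair of 1 fetus, cleared of the mesonephros, and each of 3 dams gave 1 overexpressor and 1 control.

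GDNF, a secreted ligand, binds the membrane-anchored co-receptor GFRA1, and the pair then engages the receptor tyrosine kinase RET, which signals through SRC-family kinases, the RAS to ERK route and the PI3K to AKT route. Neurturin, encoded by Nrtn, uses GFRA2, and artemin uses GFRA3, with the same RET. In the postnatal mouse testis Sertoli cells make GDNF and undifferentiated spermatogonia carry GFRA1 and RET, and the pathway keeps spermatogonial stem cells renewing. Etv5, Bcl6b and Lhx1 encode transcription factors whose transcripts depend on GDNF in cultured mouse spermatogonia. In the embryo RET and LHX1 are also made in the mesonephric duct and ureteric bud.

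The promoters of Gdnf, Lhx1 and Etv5 are shown because these genes were lower in the overexpressor of every dam (Etv5 on its brighter probe), and because active NOTCH works on DNA through RBPJ and through the HES and HEY repressors that it induces. Each window holds 250 bases before and 50 after a start site (RefSeq, GRCm38.p6), both strands were searched, and capitals mark any match to the E-box CACGTG, the class C site CACGCG or the N-box CACNAG, which HES and HEY proteins bind, to TGGGAA, a core of RBPJ sites, or to CCGGAA, a core of sites for ETS factors such as ETV5.
Gdnf, first start, chr15:7809798-7810097, plus strand: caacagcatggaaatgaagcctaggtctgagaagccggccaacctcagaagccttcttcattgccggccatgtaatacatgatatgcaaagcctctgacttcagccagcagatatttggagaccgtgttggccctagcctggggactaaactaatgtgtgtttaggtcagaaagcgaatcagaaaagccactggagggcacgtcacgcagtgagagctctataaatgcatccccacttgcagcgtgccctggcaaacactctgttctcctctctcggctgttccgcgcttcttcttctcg
Gdnf, second start, chr15:7813477-7813776, plus strand: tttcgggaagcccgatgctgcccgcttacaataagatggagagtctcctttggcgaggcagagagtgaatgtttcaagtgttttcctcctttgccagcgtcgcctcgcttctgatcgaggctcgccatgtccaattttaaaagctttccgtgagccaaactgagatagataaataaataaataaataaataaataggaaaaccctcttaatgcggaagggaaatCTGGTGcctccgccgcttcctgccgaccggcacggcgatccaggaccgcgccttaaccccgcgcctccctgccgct
Lhx1, chr11:84525485-84525784, minus strand: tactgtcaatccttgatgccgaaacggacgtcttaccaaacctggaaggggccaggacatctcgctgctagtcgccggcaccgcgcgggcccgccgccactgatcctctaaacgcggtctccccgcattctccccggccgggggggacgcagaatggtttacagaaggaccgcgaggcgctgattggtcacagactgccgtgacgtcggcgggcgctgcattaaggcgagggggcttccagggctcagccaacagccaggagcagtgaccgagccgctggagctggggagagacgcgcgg
Etv5, first window, chr16:22438319-22438618, minus strand: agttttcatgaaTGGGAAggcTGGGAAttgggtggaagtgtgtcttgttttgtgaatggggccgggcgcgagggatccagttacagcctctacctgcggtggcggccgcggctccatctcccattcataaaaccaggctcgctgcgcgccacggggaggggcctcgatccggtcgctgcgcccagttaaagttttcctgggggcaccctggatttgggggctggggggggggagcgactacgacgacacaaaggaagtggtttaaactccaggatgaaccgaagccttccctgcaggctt
Etv5, second window, chr16:22439521-22439820, minus strand: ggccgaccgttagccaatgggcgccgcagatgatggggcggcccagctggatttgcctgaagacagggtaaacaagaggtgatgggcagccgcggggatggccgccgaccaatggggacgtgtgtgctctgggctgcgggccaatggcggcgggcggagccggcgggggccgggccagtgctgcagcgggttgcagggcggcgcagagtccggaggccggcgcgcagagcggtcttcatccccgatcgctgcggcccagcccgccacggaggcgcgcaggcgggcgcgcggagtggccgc
The second Gdnf window holds 1 CACNAG match, on the minus strand, from position -26 relative to the start site, and the first Etv5 window holds 2 TGGGAA matches. The other Gdnf and Etv5 windows and that of Lhx1 hold none of the 5 motifs. Of 32851 promoter windows of this length 42.5% hold CACNAG, 25.6% TGGGAA, 14.9% CCGGAA, 9.27% CACGCG and 7.15% CACGTG. The window of Gfra1 has 1 CCGGAA match and that of Nrtn has none. No window was used for Ret, Bcl6b, Gfra2 and Gfra3.

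On each array 19459 to 20285 of 45281 probes exceeded background, meaning a detection p under 0.05 against that array's negative controls, and a probe rested on a median of 41 to 42 beads. Levels below are raw mean bead intensities unless called log2 intensities, which are background-corrected and quantile-normalized. Of the members, 5 genes with 8 probes were tested (Gdnf, Ret, Lhx1, Bcl6b and Etv5), and each of these probes was above background on all 6 arrays. The other 7 probes, among them every probe of Gfra1, Gfra2, Gfra3 and Nrtn, were above background on 0 or 1 of 6 arrays and were not tested. Of the 5 tested genes 0 rose, 1 (Ret) fell and 4 did not pass, where a gene passed at an adjusted p under 0.05 in limma. Of all 10999 genes tested 0.727% passed (0.555% higher and 0.173% lower in overexpressors), and of all 19889 probes tested 0.568%. With the dam added to the fit as a block Ret was again the 1 member that passed, where 1.05% of all genes passed, 0.4% as lower and 0.646% as higher. In 4 of the 5 genes (Ret, Gdnf, Lhx1 and Etv5) the log2 intensities of the overexpressors lay below those of the controls without overlap, a pattern held by 7% of all genes tested (7.93% showed the opposite one), and the same 4 were lower in the overexpressor of all 3 dams, as were 20.1% of all genes tested. The median log2 fold change of the 5 genes was -1.23, against -0.0032 over all genes tested. The members were chosen with earlier results of these data known, so these shares and medians only describe them and test nothing.

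**Figure D1:**
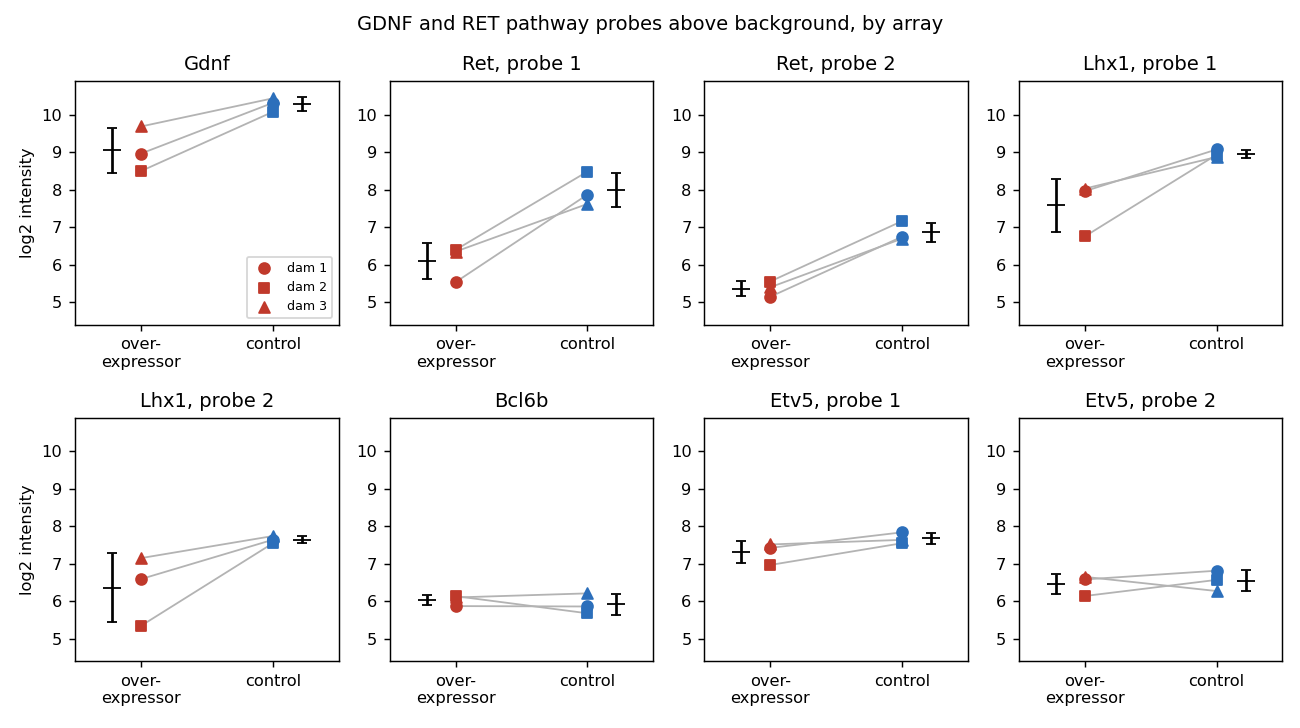
Log2 intensity of the 8 tested probes on each array, with overexpressors (red) left of controls (blue); marker shapes are dams, grey lines join littermates, and black bars are group means with their SD (n = 3). For Gdnf, both Ret probes and both Lhx1 probes every overexpressor lies below every control.

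Gdnf, the ligand gene, had a raw signal of 691, 441 and 835 in overexpressors 1 to 3, against 1474, 1145 and 1255 in controls 1 to 3. Each overexpressor was dimmer than every control, and the standard error over beads was only 4.04 to 5.23% of the signal. The log2 intensity averaged 9.05 ± 0.60 in overexpressors and 10.28 ± 0.18 in controls (SD, n = 3 each). The log2 fold change was -1.23 ± 0.28 (SE), that is 0.427 of the control level with a 95% interval from 0.276 to 0.661. It did not pass (adjusted p = 0.157), nor when dams were blocked (adjusted p = 0.0505). Within dams 1, 2 and 3 the log2 difference was -1.35, -1.58 and -0.75, and 33 of the 10999 genes had a lower log2 fold change than Gdnf. Overexpressor 3 was the brightest of its group, and without it Gdnf passed (log2 fold change -1.55, adjusted p = 0.0239). With any other array left out Gdnf did not pass (adjusted p 0.239 to 0.406), nor with any 1 dam left out (0.0821 to 0.780). A second Gdnf probe, annotated to the same transcript, was above background on 0 of 6 arrays (85.9 to 111) and carries no information on direction.

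Nrtn, the gene of the second ligand, had a raw signal of 110, 103 and 95.8 in overexpressors, against 104, 117 and 89.9 in controls. It was above background in control 2 alone, and no difference between the groups could be detected at this signal.

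Ret, the receptor tyrosine kinase gene, fell. Its brightest probe had a raw signal of 150, 167 and 155 in overexpressors, against 346, 431 and 246 in controls. In raw signal the overexpressors lay close together and just over their arrays' detection limits of 112 to 128, while the controls were spread more widely, with control 2 the highest. On the log2 scale the 2 groups were about equally spread. The log2 intensity was 6.09 ± 0.48 in overexpressors and 7.99 ± 0.44 in controls (SD, n = 3 each). The log2 fold change was -1.90 ± 0.29 (SE; adjusted p = 0.0342, and 0.0233 when dams were blocked), or 0.268 of the control level (95% interval 0.170 to 0.423). Only 9 of the 10999 genes had a lower log2 fold change. Within dams 1, 2 and 3 the log2 difference was -2.33, -2.09 and -1.27.

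A second Ret probe, annotated to the same transcript, had 135, 131 and 121 in overexpressors, against 206, 222 and 168 in controls. It was dimmer than the first and again separated the groups without overlap, and the log2 fold change was -1.50 ± 0.18 (SE; adjusted p = 0.00919, and 0.0101 with the block). Its within-dam log2 differences were -1.60, -1.61 and -1.30, which differ from those of the first probe by at most 0.73, in dam 1. The call of the first probe was lost with any 1 of the 6 arrays left out (adjusted p 0.0513 to 0.136), whereas the second probe passed in 5 of these 6 fits (adjusted p 0.0213 to 0.0586, the highest without overexpressor 1). With any 1 dam left out the first probe did not pass (adjusted p 0.0850 to 0.359). The second passed in only 1 of these fits (adjusted p 0.0495 to 0.287). The size also moved with the background correction: without it the log2 fold change was -1.06 for the first probe and -0.62 for the second, and both passed. The remaining Ret probe, annotated to another Ret transcript, was above background on 0 of 6 arrays, at 99.7 to 114 in overexpressors and at most 98.6 in controls.

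The co-receptor genes could not be compared. The only Gfra1 probe, for the co-receptor of GDNF itself, had 125, 114 and 94.6 in overexpressors, against 111, 102 and 97.6 in controls, and its lowest detection p was 0.0502, in overexpressor 2. Gfra2 had 104, 91.4 and 96.3 in overexpressors, against 99.7, 101 and 105 in controls, all below the limit. The brighter Gfra3 probe had 125, 106 and 118 in overexpressors, against 110, 107 and 102 in controls, and was above background in overexpressor 3 alone, while the other Gfra3 probe was so on no array. A probe at background does not show that the transcript is missing: the probes of Akt1, a kinase gene of nearly all cells, were likewise above background on 0 arrays.

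**Figure D2:**
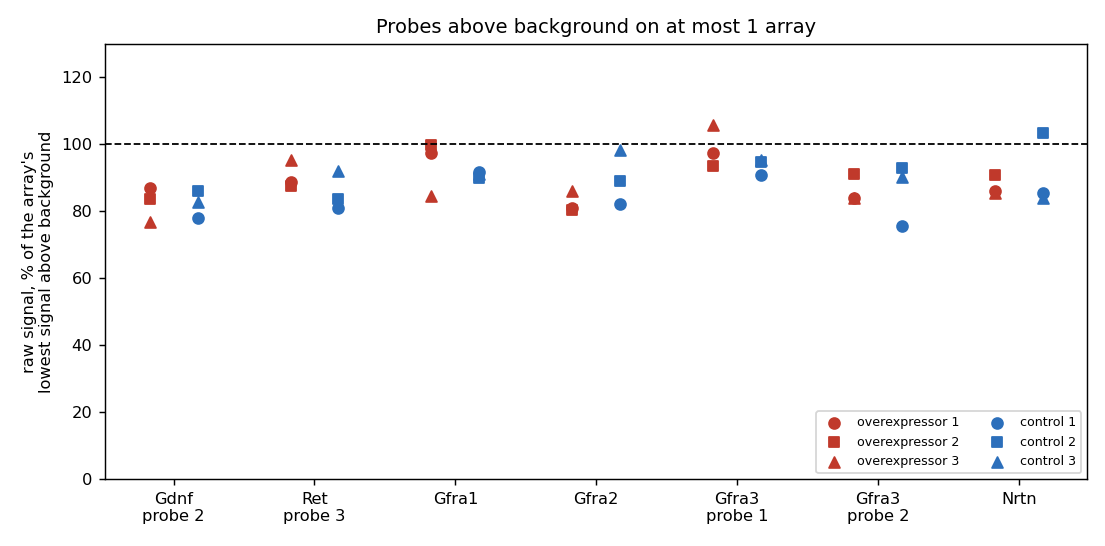
Raw signal of the 7 probes that were above background on at most 1 array, as a percentage of the lowest signal above background on the same array (dashed line at 100%), with overexpressors (red) left of controls (blue). Only Gfra3 in overexpressor 3 and Nrtn in control 2 pass the line, and Gfra1 in overexpressor 2 lies just under it.

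Lhx1, which encodes a LIM homeobox transcription factor, had a raw signal of 395, 192 and 315 in overexpressors, against 678, 558 and 474 in controls. The controls lay close together on the log2 scale (8.96 ± 0.10, SD, n = 3) and the overexpressors did not (7.58 ± 0.72, SD, n = 3), with overexpressor 2 the lowest. The log2 fold change was -1.38 ± 0.31 (SE), 0.385 of the control level with a 95% interval from 0.235 to 0.631, and it did not pass (adjusted p = 0.160, and 0.0958 when dams were blocked). Its second probe had 212, 125 and 210 in overexpressors, against 310, 265 and 262 in controls, and the log2 fold change was -1.28 ± 0.39 (adjusted p = 0.321). The probes gave nearly the same within-dam log2 differences, at -1.11, -2.18 and -0.84 for the first and -1.05, -2.20 and -0.59 for the second in dams 1 to 3. Both single out dam 2.

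Etv5 encodes an ETS transcription factor that acts downstream of RET. Its brighter probe had 302, 209 and 245 in overexpressors, against 341, 265 and 249 in controls, and the log2 fold change was -0.37 ± 0.18 (SE; adjusted p = 0.571). The log2 intensities of the groups did not overlap, but overexpressor 3 (7.52) lay only just under control 2 (7.55). On the second Etv5 probe the groups overlapped and dam 3 had the opposite sign (0.38), and the log2 fold change was -0.09 ± 0.19 (adjusted p = 0.925). The 95% interval of the brighter probe ran from -0.77 to 0.03.

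Bcl6b, which encodes a zinc-finger transcriptional repressor, had a raw signal of 165, 155 and 144 in overexpressors, against 152, 134 and 143 in controls. The groups overlapped on the log2 scale, and the within-dam differences were 0.01, 0.46 and -0.11. The log2 fold change was 0.12 ± 0.17 (SE; adjusted p = 0.883), with a 95% interval from -0.27 to 0.51. The 3 target genes thus had estimates that ranged from -1.38 to 0.12, and no test between them was made.

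**Figure D3:**
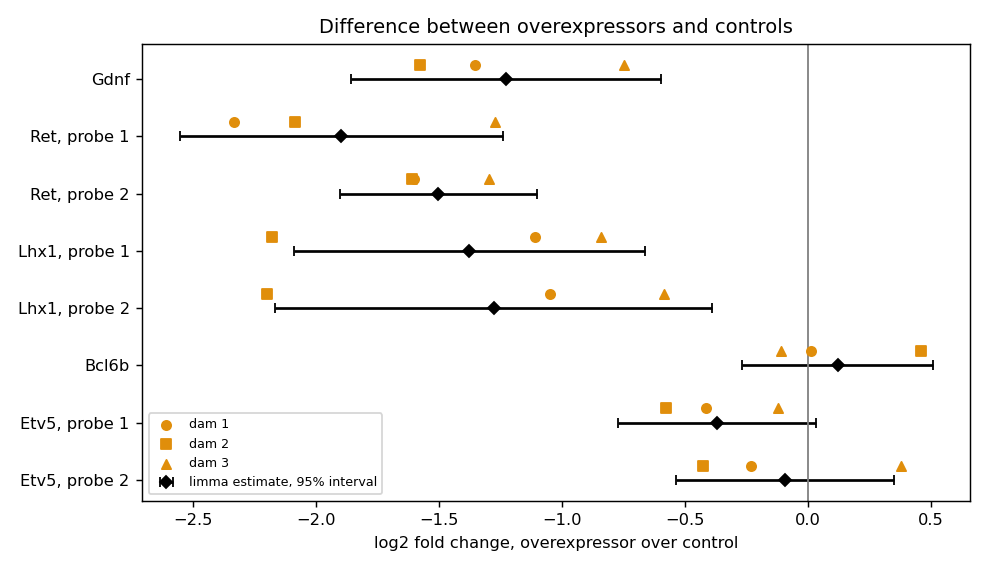
Log2 fold change of overexpressors over controls for the 8 tested probes: diamonds are limma estimates with 95% intervals (n = 3 per group), and orange markers are the within-dam differences. The intervals of Gdnf, Ret and Lhx1 lie below 0, those of Bcl6b and Etv5 span it, and among Gdnf, Ret and Lhx1 the marker nearest 0 is that of dam 3.

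Dam 3 gave the smallest log2 difference for Gdnf, for both Ret probes and for both Lhx1 probes. Each dam is 1 pair of littermates, and the cause of this order was not tested. NOTCH readouts, chosen after their values were seen, did not share that order: Hey1, a NOTCH-induced repressor gene that rose (1.27 ± 0.15, adjusted p = 0.00878), had within-dam log2 differences of 1.35, 1.15 and 1.32 in dams 1 to 3, and Notch1, which did not pass (0.81 ± 0.19, adjusted p = 0.162), had 0.65, 0.90 and 0.89. Hes1, another NOTCH-induced repressor gene, stood at 0.18 ± 0.22 (adjusted p = 0.863), with 0.07, 0.10 and 0.37 within dams 1 to 3. With 1 pair per dam these readouts test no cause of the order. The Notch1 probe's place relative to the part encoded by the transgene is not known here, so it does not check the genotype labels.

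The genes whose pattern over the 6 arrays was nearest to that of Gdnf, by the root-mean-square distance of log2 intensities centred per gene, were Kcnh1, a potassium channel gene (distance 0.116, log2 fold change -1.13), Fam155a (0.130, -1.33), Mgst2, a microsomal glutathione transferase gene (0.131, -1.19), Arhgef4, a guanine nucleotide exchange factor gene (0.132, -1.12), and Tesc, which encodes a calcium-binding protein (0.149, -0.99). None of these 5 passed (adjusted p from 0.0541 to 0.295), and when dams were blocked Fam155a (adjusted p = 0.0370), Mgst2 (0.0333) and Arhgef4 (0.0292) did. Nearest to Ret were Tmem130 (distance 0.143, log2 fold change -1.75), Pdzk1, a scaffold protein gene (0.237, -1.71), Tdrd5, a piRNA pathway gene of germ cells (0.254, -1.90), Foxr1, a forkhead gene (0.258, -1.67), and Kremen2, which encodes a receptor for Dickkopf proteins (0.268, -1.81). None of these 5 passed without the block (adjusted p from 0.0687 to 0.167), and with it Tmem130 (adjusted p = 0.0217), Pdzk1 (0.0375), Foxr1 (0.0134) and Kremen2 (0.0142) did and Tdrd5 (0.0707) did not. All these neighbours of Gdnf and Ret were picked by their values on the same 6 arrays. Fold changes near those of Gdnf and Ret were thus built in, and the calls are no separate evidence. Of all 10999 genes 2189 lay nearer to Gdnf than Ret did (distance 0.65), and 21 lay nearer than Lhx1 did (0.28). The profiles were centred but not scaled, so this distance also counts differences in the size of a change. Seen from Ret, 82 genes lay nearer than Gdnf did and 111 nearer than Lhx1 did (distance 0.71).

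Germ cell markers are set beside Ret because germ cells carry it in the postnatal testis. Of 12 such markers 11 were tested, 10 were lower and 1 higher in overexpressors, 0 passed, and the median log2 fold change was -0.57, against -0.0032 over all genes tested. The marker with no probe above background on any array was Mael. The summed intensity of the 11 tested markers, background-corrected, ranged from 9262 to 15003 in overexpressors and from 14239 to 25084 in controls, and these ranges overlap. The bright markers Dppa4 and Dazl weigh most in this sum. They averaged 11.7 and 11.6 (log2 intensity) in overexpressors and 12.8 and 11.6 in controls. Dppa4, a pluripotency-associated gene, stood at -1.08 ± 0.29 (adjusted p = 0.261, and 0.0302 when dams were blocked), Dnd1, which encodes an RNA-binding protein of germ cells, at -1.06 ± 0.24 (0.167, and 0.0445 with the block), and Utf1, a chromatin factor gene, at -0.82 ± 0.23 (0.269). Some other germ cell markers, named with their values in view, lay nearer 0: Ddx4, an RNA helicase gene, at -0.24 ± 0.28, the pluripotency factor gene Pou5f1 at -0.16 ± 0.30, Dazl, an RNA-binding protein gene, at -0.05 ± 0.26, and Sall4, a zinc-finger factor gene, at 0.08 ± 0.23. The remaining tested markers were lower: Nanos3 at -1.17 ± 0.54, Dppa3 at -0.78 ± 0.24, Tdrd1 at -0.57 ± 0.28 and Lin28a at -0.45 ± 0.30. The median of the markers within dams 1, 2 and 3 was -0.83, -0.71 and -0.40, so that dam 3 had the smallest difference here too. Fewer germ cells and less RNA per cell cannot be told apart in whole testes, and the part of the germ cells in the Ret value was not tested.

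Sertoli cell markers are set beside Gdnf. Of 14 such markers 13 were tested, 6 higher and 7 lower, with 1 that rose, 1 that fell and 11 that did not pass, and a median log2 fold change of -0.01. Their summed intensity ranged from 54540 to 62774 in overexpressors and from 41168 to 48129 in controls. The bright markers weigh most in this sum. Defb19, the brightest, averaged 13.91 (log2 intensity) in both groups, and Sox9 averaged 12.40 in overexpressors and 12.26 in controls. Cst9, Aard and Cldn11 averaged 13.88, 13.77 and 12.41 in overexpressors and 13.06, 13.33 and 11.33 in controls. Cst9, a cystatin gene, rose (0.83 ± 0.13, adjusted p = 0.0358) and Cbln4, which encodes a secreted protein of the C1q family, fell (-1.20 ± 0.20, adjusted p = 0.0474). Neither gene passed in any of the 6 fits that left out an array, where the highest adjusted p was 0.169 for Cst9 and 0.208 for Cbln4. Cldn11, a tight junction gene, stood at 1.08 ± 0.21 (adjusted p = 0.0945). Amh, the anti-Müllerian hormone gene, which was picked with its values in view, was at -1.24 ± 0.38 (adjusted p = 0.320). The list median within dams 1, 2 and 3 was -0.24, -0.05 and 0.27. Gdnf stood at -1.35, -1.58 and -0.75, and 2 of the Sertoli markers were about as low, Amh at -1.59, -1.53 and -0.61 and Cbln4 at -1.01, -1.51 and -1.07. Wt1 was not analysed here.

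**Figure D4:**
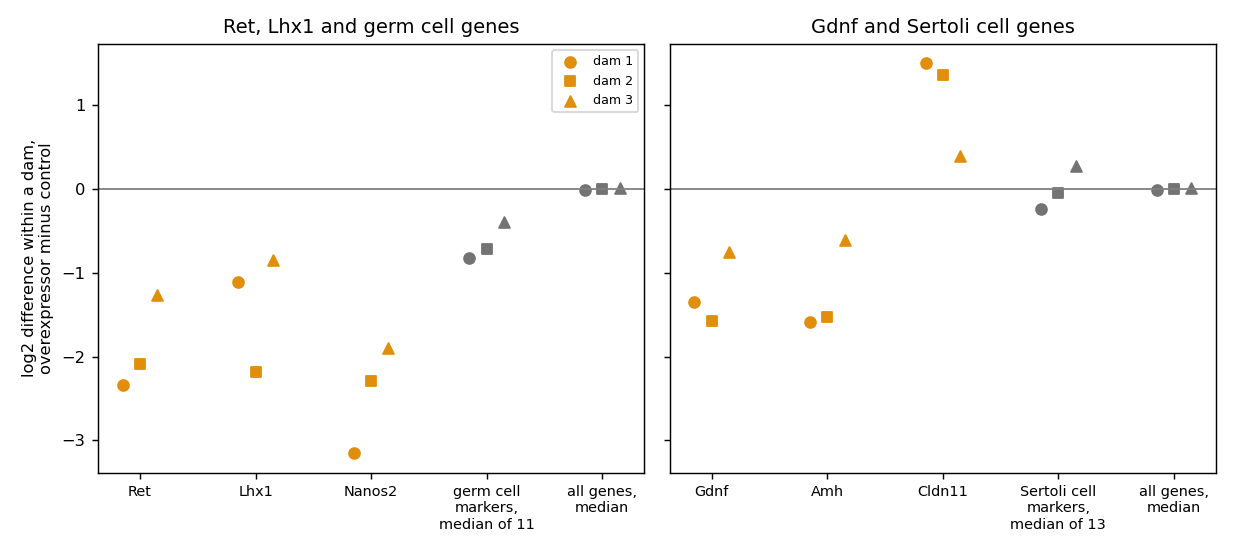
Log2 difference between overexpressor and control within each dam (marker shape) for Ret, Lhx1 and Nanos2 beside the median of 11 germ cell markers (left), and for Gdnf, Amh and Cldn11 beside the median of 13 Sertoli cell markers (right), with the median of all genes tested in each panel. Ret and Gdnf lie below the marker medians in all 3 dams, and so do Lhx1, Nanos2 and Amh, itself a Sertoli cell marker. Part of any list lies below its own median by construction. The germ cell markers Dppa4, Dnd1 and Nanos3, not drawn, did so in all 3 dams.

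Cells of adjoining tissues could also carry RET and LHX1. Of 8 mesonephros and duct markers 3 were tested, all lower, with 0 passing. Cdh1, the E-cadherin gene, stood at -0.93 ± 0.17 (adjusted p = 0.0764) and its dimmer second probe at 0.22 ± 0.25, Pax8 at -0.03 ± 0.28 and Cdh16 at -0.02 ± 0.29. Emx2, Wnt9b and Gata3 were above background on 0 arrays and Pax2 in 1 overexpressor. The summed intensity of the 3 tested genes was 93.0 to 195 in overexpressors and 215 to 248 in controls. Cdh1 weighs most in this sum, at a mean log2 intensity of 6.84 in overexpressors and 7.76 in controls. Pax8 stood at 4.82 and 4.85 and Cdh16 at 5.16 and 5.19, so the sum mostly repeats the Cdh1 value. The part of duct cells in the Ret and Lhx1 values was not tested. Of 12 neural and Schwann cell markers 2 were tested, with 0 passing: Sox10, a neural crest and Schwann cell gene, stood at -0.27 ± 0.17 (adjusted p = 0.686), and Phox2a, an autonomic neuron gene, at 0.99 ± 0.21 (adjusted p = 0.130), above background in 3 of 3 overexpressors and 1 of 3 controls. The summed intensity of these 2 overlapped, at 281 to 347 in overexpressors and 296 to 396 in controls. Tubb3, Dbh, Fabp7, S100b and Erbb3 were above background on 0 arrays.

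Among 5 lists of other pathway genes 1 gene passed. Of 8 further ligand and receptor genes of the family, 3 were tested and 0 passed: the syndecan gene Sdc3 (-0.19 ± 0.16), Artn, the artemin gene (0.20 ± 0.22), and Ncam1, whose product is an alternative GDNF receptor (-0.01 ± 0.14). Pspn, Gfra4, Gfral and Gas1 were above background on 0 arrays. Of 27 RET adaptor and kinase genes 14 were tested, of which 1 rose, 0 fell and 13 did not pass, with a median log2 fold change of 0.03. The 1 that rose was Src, a cytoplasmic tyrosine kinase gene, at 8.54, 8.44 and 8.67 (log2 intensity) in overexpressors 1 to 3, against 7.74, 7.73 and 7.63 in controls 1 to 3. Its log2 fold change was 0.85 ± 0.13 (adjusted p = 0.0344), and the call was lost when dams were blocked (adjusted p = 0.0501) and with any 1 array left out (0.0705 to 0.160). The other Src probes were above background on at most 1 array. Pdlim7 stood at 0.29 ± 0.13 (adjusted p = 0.527) and the adaptor gene Grb7 at -0.71 ± 0.35 (adjusted p = 0.585).

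Of 13 genes of feedback and receptor turnover 7 were tested and 0 passed, with a median of -0.04. The ERK phosphatase gene Dusp6 stood at -0.37 ± 0.16 (adjusted p = 0.510), the ubiquitin ligase gene Cblb at 0.47 ± 0.21 (0.543) and Spred1, an inhibitor of RAS signalling, at -0.17 ± 0.14 (0.784). The Cblb probes disagreed, with 0.67 ± 0.19 and -0.24 ± 0.24 for the other tested ones. Of 11 genes reported to respond to GDNF in mouse spermatogonia 7 were tested and 0 passed, with a median of -0.18. Nanos2, which encodes an RNA-binding protein of male germ cells, had a log2 intensity of 6.45, 8.24 and 7.50 in overexpressors, against 9.60, 10.54 and 9.40 in controls. Its groups did not overlap, and the log2 fold change was -2.45 ± 0.45 (adjusted p = 0.0681, and 0.0142 when dams were blocked). With 1 array left out its adjusted p ranged from 0.0351 to 0.209, the lowest without overexpressor 2. Tspan8, a tetraspanin gene, stood at -0.98 ± 0.31 (adjusted p = 0.350) and Fos, an immediate-early gene, at -0.18 ± 0.16 (0.788). Of 8 genes that respond to RET in the mouse ureteric bud 3 were tested and 0 passed: the ETS factor gene Etv4 (0.42 ± 0.19, adjusted p = 0.527), the protease gene Mmp14 (0.17 ± 0.13) and the chemokine receptor gene Cxcr4 (0.01 ± 0.18). The median was 0.17. The shares called in these lists, at 1 of 14 and 0 of 3, 7, 7 and 3, compare with 0.727% of all genes.

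**Figure D5:**
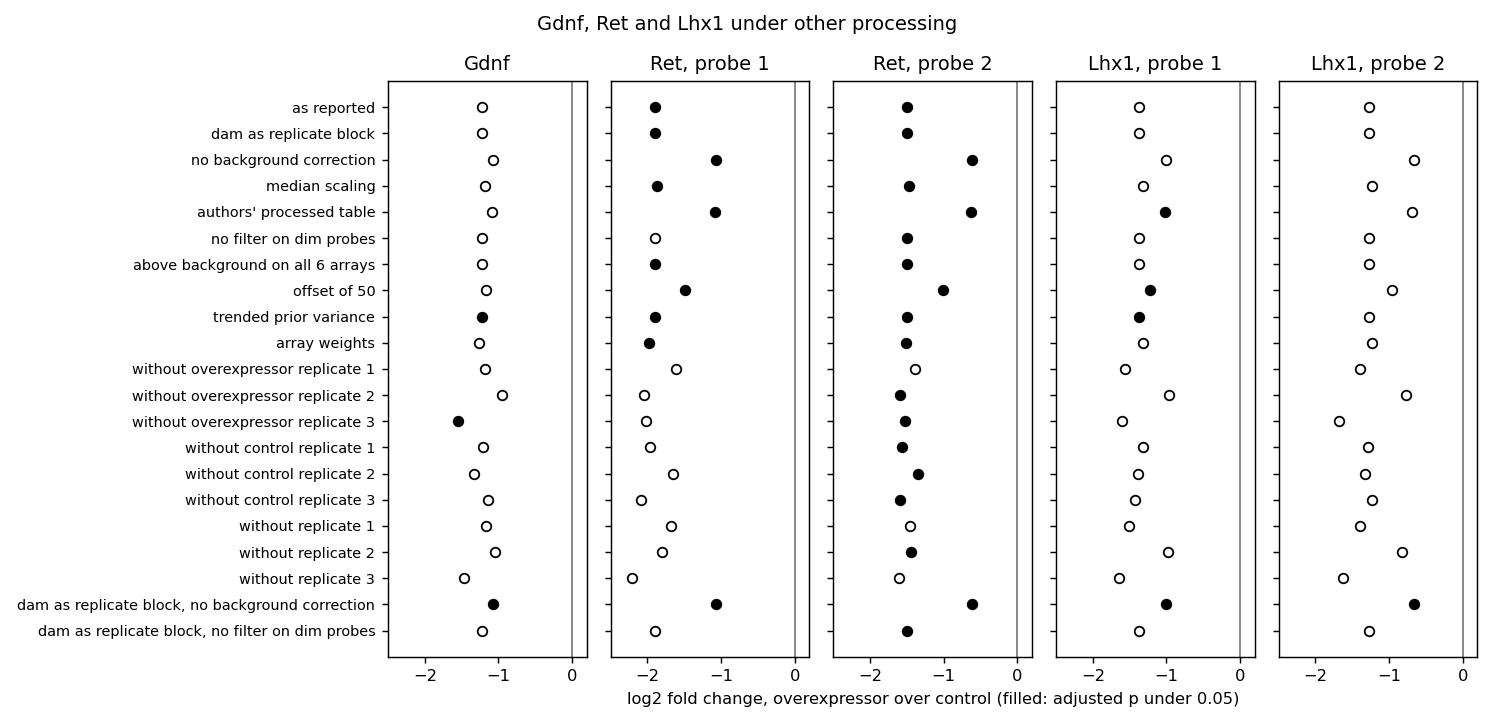
Log2 fold change of overexpressors over controls for the Gdnf, Ret and Lhx1 probes as reported and under each of 20 other ways of processing, filled where the adjusted p was under 0.05. Every point lies below 0, and the second Ret probe is filled in 17 of the 20, more often than the other probes. Settings that change only the filter, block or prior variance, or that leave out arrays, could not move a point past 0.

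Ret, Gdnf and Lhx1 stayed lower in overexpressors under all 20 alternatives, with log2 fold changes from -2.21 to -1.06 for the first Ret probe, from -1.55 to -0.95 for Gdnf and from -1.65 to -0.96 for Lhx1. For many of these the sign was fixed in advance. Changes of the filter, block or prior variance leave the log2 fold change as it was. Leaving out arrays or dams cannot reverse groups that do not overlap. The first Ret probe passed in 9 of the 20, Gdnf in 3 and Lhx1 in 4. With the dam as a block and no background correction together, a combination chosen after seeing the data, all 3 passed (adjusted p = 0.000488 for Ret, 0.000671 for Gdnf and 0.00241 for Lhx1). In that fit 736 probes were called in all, against 113 as reported.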

How the data were processed

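Total RNA of 6 testis pairs was biotin-labelled and hybridised to Illumina BeadChip arrays, 1 array per pair, per the labels' protocols. GenomeStudio 2010.3 was used, per the submitters' processing notes. Per the file headers, the deposited table holds raw bead intensity, the deposited bead count, the standard error of the bead signal and a detection p-value. The authors' processed table holds intensity equal to the raw value times 1 factor per array (0.855 to 1.15); it gives every array the same mean, 387.2.

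Symbols of 34885 probes with 1 gene (18 had several, 10378 were unnamed) were updated by Entrez identifier to the GRCm38.p6 table, used for names only since the files name no build. Signals were processed with neqc (offset 16, log2 scale) in limma 3.58.1 under R 4.3.3. Probes with a detection p under 0.05 on at least 3 of 6 arrays were tested (19889), two-sided, with limma and Benjamini-Hochberg adjustment over all of them. The brightest tested probe stands for a gene. On simulated data of 19889 probes, 53% of changes of 1 on the log2 scale and 97% of changes of 2 were recovered. There 6 of 156 calls were false. The simulated noise was independent between littermates and its SD was shuffled over probes, so these rates need not hold for the real arrays. The number of arrays limits the precision.

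The members, lists and rules were chosen with earlier results of these data known. Named are all members, list genes past the threshold, the 3 of each list with the smallest p, and the 5 genes nearest to Gdnf and to Ret, leaving out clone names. Dams pair the samples, per the labels: deviations of littermates from their group means correlated at 0.252, 0.426 and 0.304, and those of other pairs at -0.279 to -0.0138. The fit has no dam term, and the block is an alternative, as are the settings listed in the closing section. List genes without a probe were not analysed here.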

Additional observations from a re-analysis of the deposited data

How the results depend on the processing

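The number of probes changed, 113 as reported, was 157 with the dam as a replicate block, 140 with no background correction, 145 in the authors' processed table, 67 with no filter on dim probes, 175 with an offset of 50, 202 with a trended prior variance, 736 with the block and no background correction, and 79 with the block and no filter. It was 32 to 101 with 1 array left out and 5 to 47 with 1 dam left out. The number of member genes changed, 1 as reported and with the replicate block, was 2 in the authors' table and with an offset of 50, 3 with a trended prior variance and with the block and no background correction, and 0 with no filter, with or without the block. It was 0 to 1 with 1 array left out and 0 with any 1 dam left out. These counts take each gene's brightest probe. The 1 call without overexpressor 3 was Gdnf; there the first Ret probe had an adjusted p of 0.0578 (log2 fold change -2.03) and the second passed (0.0293). The number of genes of the fixed pathway lists changed was 1 as reported. It was 2 with no background correction, median scaling, the authors' table, an offset of 50, a trended prior variance or array weights. With the block it was 4 with no background correction and 0 with no filter. With 1 array left out it was 0 to 1, and with any 1 dam left out 0. Bcl6b changed sign only without dam 2 (log2 fold change -0.049, against 0.27 at the other end with 1 array or dam left out). With no filter the first Ret probe kept its log2 fold change of -1.90 but did not pass (adjusted p = 0.133), and the second passed (0.0358, and 0.0256 with the block). A filter on all 6 arrays changed no member call. The block changed no member call; among list genes it ended that of Src and added Nanos2, Dnd1 and Dppa4. The causes were not tested. Signals near background limit Ret in overexpressors and all 4 members that were not tested.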
